A study of Zea mays with 4 samples.

Results

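The 3 genes described here, teosinte branched1 (tb1, Zm00001d033673), grassy tillers1 (gt1, Zm00001d028129) and tassels replace upper ears1 (tru1, Zm00001d042111), restrain the growth of axillary buds in maize. They were picked out by their B73 RefGen_v4 identifiers and by no cut-off on their values. Earlier results of these data were known when they and the gene lists below were chosen. They are 3 of the 39179 genes with FPKM values (fragment counts scaled to transcript length and library size). All 3 were detected in both libraries of the female inflorescence. tb1 and gt1 were at 0 in one library of the top internode and reached 37.7% and 39.9% of their inflorescence level in the other, whereas tru1 was present in all 4 libraries. The difference between the tissues did not pass the FDR threshold for any of the 3 genes when all libraries were used.

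Axillary buds of maize form in the axils of leaves, and the upper ones become ears on short shanks while most of the others stay dormant. tb1 encodes a transcription factor of the TCP family that keeps these buds from growing into branches, and a change in its regulation contributed to the domestication of maize from the branched grass teosinte. gt1 encodes a homeodomain leucine zipper (HD-ZIP) factor that acts with tb1 in bud dormancy, responds to shade, and also stops the growth of carpels in florets that lose them. tru1 encodes a protein with ankyrin repeats and a BTB/POZ domain, is a direct target of the TB1 protein, and is needed for the upper axillary shoots to stay short and to end in ears.

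Total RNA was sequenced from Puma hybrid plants grown in pots in a greenhouse and sampled at 60 DAS (days after sowing), before pollination, with the ears covered before their silks emerged. The 2 groups were the female inflorescence (FI) and a stem section taken from the top internode (TI), with 2 libraries each and no other treatment or genotype. The methods call the libraries biological replicates, but the labels do not say whether they came from separate plants, so the p-values below measure only the spread between these libraries. The comparison asked how gene expression differs between a reproductive tissue that stores starch and a vegetative tissue. In whole tissues, fewer cells that express a gene and less RNA per cell cannot be told apart.

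The 2 TI libraries stood apart from each other. On log2(FPKM + 1), over the 19531 genes whose FPKM averaged at least 1, the 2 FI libraries had a Pearson correlation of 0.954. TI replicate 2 had 0.897 and 0.910 with FI replicates 1 and 2, more than its 0.861 with TI replicate 1, while TI replicate 1 had only 0.707 and 0.689 with them. These coefficients are across genes, which are not independent replicates. Marker genes differed in the same way. Of 18 names fixed as inflorescence markers, 11 had a gene model with counts in the deposited table of read counts, all of them MADS-box genes of floral organs and meristems, and both FI libraries were above both TI libraries in 11 of 11, including the 9 that were tested, against 30.0% of the 15479 gene models tested. Their summed level was 1151 and 935 CPM (read counts scaled to the library total) in FI, 31.9 CPM for TI replicate 1 and 462 CPM for TI replicate 2. Of the 11, zag2, zmm27, zmm29, si1 and bde1 had 0 counts in TI replicate 1, while zmm16 and zmm24 had 21 and 29. None of the 11 was at 0 in TI replicate 2, but zmm29 and si1 had only 1 count each there and were too low to be tested. The part of these differences between the TI libraries in the results below was not tested, and each result is therefore given for the TI libraries separately.

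Total read counts were 2431447 and 2072230 in FI replicates 1 and 2 and 1817889 and 1455729 in TI replicates 1 and 2. The steps of the FPKM values gave back whole fragments for 24146 of 24149 genes above 0 in at least 2 libraries (within 0.01 of a whole number), with totals between 2353023 and 3851080 fragments per library. The search tried many multipliers for each gene, so the 24146 of 24149 was partly fixed in advance. It does not show that every number of fragments is right. The intervals given for single libraries are exact 95% Poisson intervals of the recovered fragments or counts and cover counting error only. For a value of 0, the level that 3 fragments or counts would have given is used as its limit. The exact 95% interval of a 0 reaches further, to 3.69. TI replicate 2 was the shallowest library by both measures.

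tb1, the TCP factor at the head of this pathway, had 6.58 FPKM in FI replicate 1 and 7.14 FPKM in FI replicate 2. It was at 0 FPKM in TI replicate 1 and at 2.59 FPKM in TI replicate 2. Neither TI library reached the lower FI library, and the FI libraries were much closer to each other than the TI libraries were. The underlying numbers of fragments were small, at 33 and 32 in FI, 0 for TI replicate 1 and 8 for TI replicate 2. The counting intervals were 4.53 to 9.25 and 4.88 to 10.1 FPKM in FI and 1.12 to 5.10 FPKM in TI replicate 2, and the 0 of TI replicate 1 allows up to 3 fragments, or 0.786 FPKM. The interval of TI replicate 2 therefore overlapped both FI intervals, and the limit of TI replicate 1 lay below them. tb1 stood in the middle of the genes of the inflorescence, with more FPKM than 51.4% and 53.4% of the genes above 0 in the FI libraries and than 30.5% of those in TI replicate 2.

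The FI mean of tb1 was 6.86 ± 0.393 FPKM (SD, n = 2) and the TI mean 1.29 ± 1.83 FPKM (SD, n = 2), the SD of TI being larger than its mean. The FI mean was 2.65-fold that of TI replicate 2. It was 8.72-fold the limit of 3 fragments in TI replicate 1, with the counting error of FI left out. In the comparison of the tissues with limma on log2(FPKM + 1), tb1 had a log2FC of 2.05 (SE 0.67, positive for higher expression in FI), an unadjusted p of 0.0311 and an FDR of 0.247. Leaving out TI replicate 1 gave a log2FC of 1.13 (SE 0.28, FDR 0.119 by limma), and leaving out TI replicate 2 gave 2.97 (SE 0.30, FDR 0.00364 by limma). The call thus rested on which TI library was used.

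**Figure D1:**
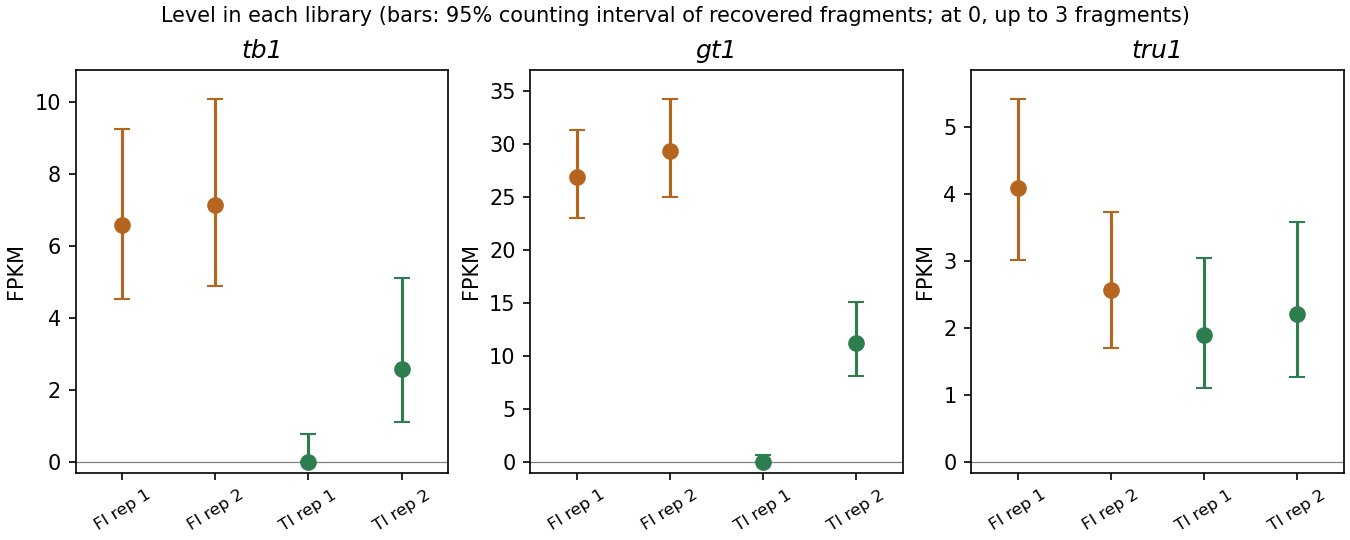
Level of tb1, gt1 and tru1 in each library, in FPKM on a linear axis that starts near 0 and differs between panels. Points are the deposited values of the 2 FI and 2 TI libraries, and bars are 95% counting intervals of the recovered fragments, or reach up to 3 fragments where the value is 0. tb1 and gt1 were at 0 FPKM in TI replicate 1 and at 2.59 and 11.2 FPKM in TI replicate 2, while the intervals of tru1 overlapped between the tissues.

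gt1, the HD-ZIP factor, was the most abundant of the 3 genes in every library where it was detected. It had 26.9 FPKM in FI replicate 1 and 29.3 FPKM in FI replicate 2, and 0 and 11.2 FPKM in TI replicates 1 and 2. As for tb1, the tissues did not overlap and the TI libraries differed from each other more than the FI libraries did. These levels came from 167 and 163 fragments in FI, 0 for TI replicate 1 and 43 for TI replicate 2. The counting intervals were 23.0 to 31.3 and 25.0 to 34.2 FPKM in FI and 8.12 to 15.1 FPKM in TI replicate 2, and the 0 of TI replicate 1 allows up to 3 fragments, or 0.634 FPKM. Neither the interval of TI replicate 2 nor the limit of TI replicate 1 reached the FI intervals. It ranked above 86.6% and 88.8% of the genes detected in the FI libraries and above 65.3% of those in TI replicate 2.

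The FI mean of gt1 was 28.1 ± 1.74 FPKM (SD, n = 2) and the TI mean 5.61 ± 7.94 FPKM (SD, n = 2). FI was 2.50-fold TI replicate 2, and 44.3-fold the limit of 3 fragments in TI replicate 1, with the counting error of FI left out. limma gave a log2FC of 3.06 (SE 1.21), an unadjusted p of 0.0574 and an FDR of 0.263. The log2FC was 1.25 (SE 0.21, FDR 0.0748 by limma) without TI replicate 1 and 4.86 (SE 0.24, FDR 0.000897 by limma) without TI replicate 2. On this scale both the log2FC and the SE of gt1 were larger than those of tb1, whereas on recovered fragments the log2FC of tb1 was the larger (2.45 against 2.35 by edgeR's quasi-likelihood test). Again only the fit without TI replicate 2 passed the FDR threshold of 0.05.

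gt1 was also measured in the table of read counts, where the gene table pairs its name with the version 3 gene model GRMZM2G005624. It had 105 and 86 counts in FI, 0 in TI replicate 1 and 24 in TI replicate 2. Scaled to the library totals these were 43.2 CPM (interval 35.3 to 52.3) and 41.5 CPM (33.2 to 51.3) in FI, 0 CPM in TI replicate 1 (a limit of 3 counts, or 1.65 CPM) and 16.5 CPM (10.6 to 24.5) in TI replicate 2. Both deposited tables thus had FI above TI replicate 2 and a 0 in TI replicate 1, while the FI libraries, which lay close together, stood in opposite order in them. Both were made by the authors from the same reads. The FI mean of 42.3 ± 1.19 CPM (SD, n = 2) was 2.57-fold TI replicate 2, and TI replicate 2 stood at 38.9% of it. The FI mean was 25.7-fold the limit in TI replicate 1, with the counting error of FI left out. edgeR's quasi-likelihood test gave gt1 a log2FC of 2.39 (SE 1.19, unadjusted p = 0.0987, FDR 0.371). Without TI replicate 1 the log2FC was 1.35 with an FDR of 0.107 in the same edgeR test, and without TI replicate 2 the FDR was 8.96e-06.

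tru1, the BTB/POZ and ankyrin repeat protein downstream of TB1, had the lowest FI levels of the 3 genes and was the only one of them detected in TI replicate 1. Its FPKM were 4.08 and 2.57 in FI replicates 1 and 2 and 1.90 and 2.21 in TI replicates 1 and 2. The tissues did not overlap, but FI replicate 2 was only 1.16-fold above TI replicate 2, less than the 1.59-fold difference between the FI libraries. The values came from 48, 27, 17 and 16 fragments in the same order. Their counting intervals were 3.01 to 5.41 and 1.69 to 3.74 FPKM in FI and 1.11 to 3.04 and 1.26 to 3.58 FPKM in TI. Every TI interval overlapped every FI interval.

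The FI mean of tru1 was 3.32 ± 1.07 FPKM (SD, n = 2) and the TI mean 2.05 ± 0.217 FPKM (SD, n = 2). TI replicates 1 and 2 had 57.1% and 66.4% of the FI mean, so for this gene they stood near each other. limma gave a log2FC of 0.48 (SE 0.33, unadjusted p = 0.205, FDR 0.420). Leaving out TI replicate 1 or 2 gave a log2FC of 0.41 or 0.55, and the lowest FDR of tru1 over 12 alternative fits was 0.310. The log2FC was positive in all 12, but the difference did not pass the FDR threshold in any of them.

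Over the 3 genes, both FI libraries were above both TI libraries in 3 of 3, a pattern that 33.0% of the 19531 genes tested had. An unadjusted p under 0.05 with higher expression in FI was found for 1 of 3 (tb1), against 9.37% of all genes. When calls were limited to an absolute log2FC over 2 and an FDR under 0.05, none of the 3 was called on FPKM, as for all other genes (0%), although 3749 genes had an unadjusted limma p under 0.05. edgeR's exact test on the recovered fragments, at an FDR under 0.05 with higher expression in FI, took in 0 of the 3 genes and 1.55% of all genes tested. It gave tb1 a log2FC of 2.43 (FDR 0.103), gt1 2.32 (FDR 0.184) and tru1 0.66 (FDR 0.671). On counts, edgeR's quasi-likelihood test called 0% of the gene models, with an unadjusted p under 0.05 and higher expression in FI for 6.11% of them, gt1 not among them. For any gene taken alone, permuting 2 libraries of each tissue exactly could reach no two-sided p smaller than 0.333.

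**Figure D2:**
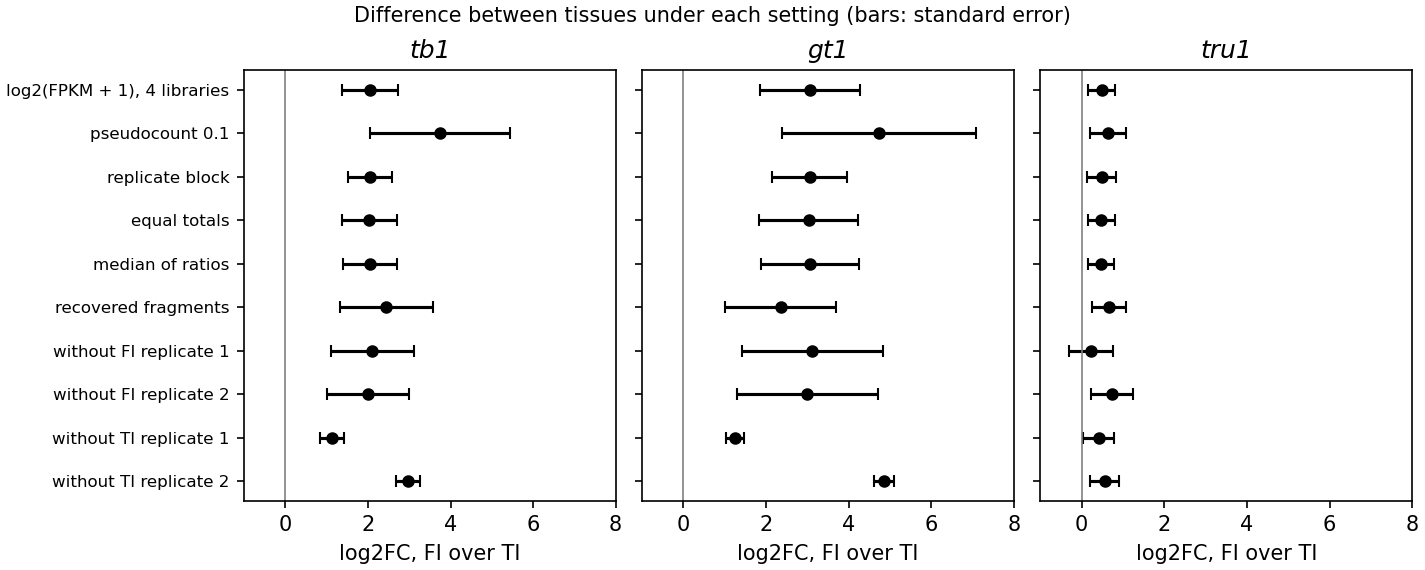
log2FC between the tissues (FI over TI, positive for higher in FI) of tb1, gt1 and tru1 under 10 settings, with bars for the standard error, by limma on FPKM except for the recovered fragments (edgeR). For tb1 and gt1 the smallest value, 1.13 and 1.25, came without TI replicate 1, and the short bars of both fits with 1 TI library contrast with the long bars of the 4-library fits. tru1 stayed between 0.23 and 0.74.

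How the genes related to each other was compared by FPKM, which is per length. gt1 had 4.08 times the FPKM of tb1 in FI replicate 1 (interval 2.80 to 6.12), 4.11 times in FI replicate 2 (2.80 to 6.21) and 4.34 times in TI replicate 2 (2.01 to 10.7). The ratio of gt1 to tb1 thus differed between these 3 libraries by much less than its counting error, and could not be formed in TI replicate 1, where both were at 0. tb1 was 1.61 times tru1 in FI replicate 1 (1.00 to 2.57), 2.78 times in FI replicate 2 (1.61 to 4.82) and 1.17 times in TI replicate 2 (0.435 to 2.90). In FI the order of the levels was gt1, tb1, tru1 in both libraries. In TI replicate 2 gt1 was again first, while the intervals of tb1 and tru1 overlapped, and in TI replicate 1 tru1 alone was above 0.

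Being at 0 in TI replicate 1 alone was shared by tb1 and gt1, 2 of the 3 genes, and by 766 of the 19531 genes, or 3.92%. The corresponding numbers of genes at 0 alone in FI replicate 1, FI replicate 2 and TI replicate 2 were 45, 94 and 57. Among the 12460 genes with at least 5 FPKM in both FI libraries, 255 were at 0 in TI replicate 1 with at least 1 FPKM in TI replicate 2, and 1 (Zm00001d044747) showed the reverse. tb1 and gt1 were among these 255. In TI replicate 2 the 255 genes had a median of 44.8% of their FI mean, with quartiles of 33.8% and 53.6%, so the 37.7% of tb1 and the 39.9% of gt1 fell between the lower quartile and the median. tb1 was above 81 and gt1 above 97 of the 255 genes by this share. The floral markers had a similar share, with a median of 42.9% and a range from 16.5% to 68.0% in TI replicate 2, and 0 to 19.2% in TI replicate 1. The part of floral RNA in the tb1 and gt1 values of TI replicate 2 was not tested.

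**Figure D3:**
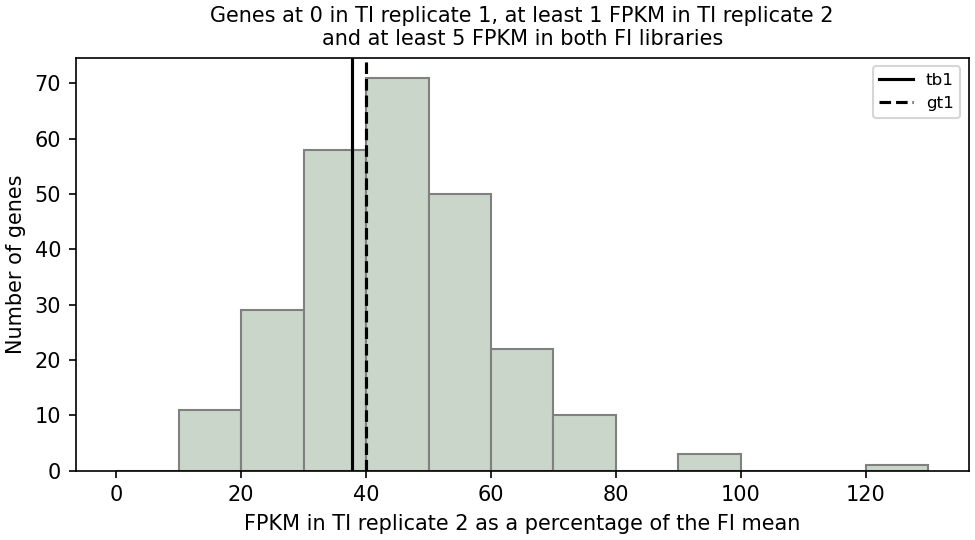
Number of genes by their FPKM in TI replicate 2 as a percentage of the FI mean, for the 255 genes at 0 in TI replicate 1 with at least 1 FPKM in TI replicate 2 and at least 5 FPKM in both FI libraries. Vertical lines mark tb1 (37.7%) and gt1 (39.9%), both left of the median of 44.8%.

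Single floral markers, like tb1, gt1 and tru1, had FI above TI replicate 2 and TI replicate 2 above TI replicate 1. On FPKM, 5512 of the 19531 genes averaging at least 1 FPKM had this order. zmm27 had 549 and 344 counts in the FI libraries against 0 and 111 in those of TI, and zmm8, a MADS-box gene of upper floret meristems, had 632 and 396 in FI against 2 and 116 in TI. zmm6, the marker with the highest mean CPM over all libraries, had 603 and 409 counts in the FI libraries against 3 and 143 in those of TI. zmm24 had 213 and 191 in FI against 29 and 89 in TI. It was thus also present in TI replicate 1, at 17.7% of its FI mean CPM. For the 9 markers that entered the test the log2FC was 1.20 to 2.49 with an FDR of 0.338 to 0.481 by edgeR's quasi-likelihood test, and without TI replicate 1 the log2FC was 0.55 to 1.50. The log2FC of gt1 on counts lay inside both ranges. Of 9 names fixed as markers of green tissue, 5 had a gene model with counts (ssu1, pep1, me3, ppdk1 and lhcb7). These had the opposite order, with both TI libraries above both FI libraries in 5 of 5. The same held for all 4 of those tested (me3 was not), against 26.5% of the gene models tested. Their summed level was 225 and 172 CPM in FI, 905 CPM in TI replicate 1 and 339 CPM in TI replicate 2. Of 6 names for secondary walls of the stem 4 had counts (cesa10, cesa12, bk2 and bm1), and their sums of 79.8 and 81.6 CPM in FI and 123 and 117 CPM in TI were less far apart. The lignin gene bm1 made up most of the TI sums, with 89.1 and 71.4 CPM in TI against 22.2 and 23.6 CPM in FI. It had 54 and 49 counts in the FI libraries against 162 and 104 in those of TI. Its log2FC was -1.86 (edgeR FDR 0.201, and 0.00455 in the exact test). The secondary wall cellulose synthases cesa10 and cesa12 had more CPM in both FI libraries, cesa12 with at most 5 counts in any library. bk2 overlapped between the tissues.

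**Figure D4:**
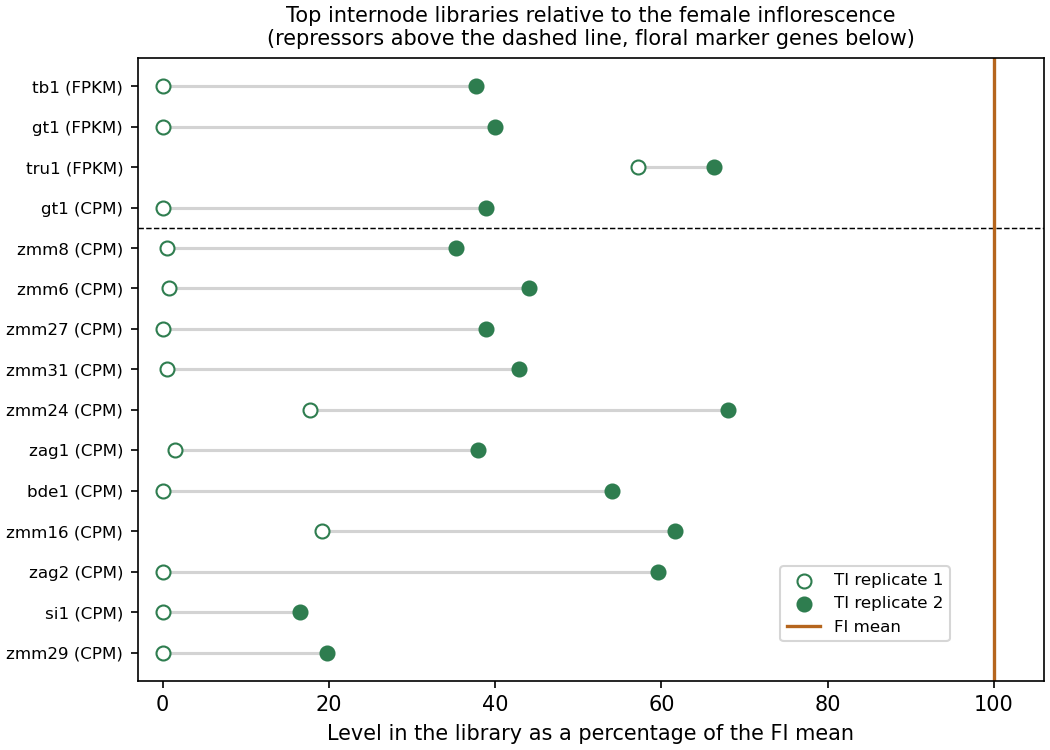
Level in TI replicate 1 (open circles) and TI replicate 2 (filled circles) as a percentage of the FI mean, which is the vertical line at 100, for the 3 genes (FPKM, and CPM for gt1) and 11 floral marker genes (CPM). tb1 and gt1 ran from 0 to 37.7% and 39.9%, inside the range of the markers in both TI libraries, while tru1 had 57.1% and 66.4%.

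Genes known to act around the 3 repressors were taken from lists of names and read in the table of counts. Here and for the markers above, a name could also drop out because the gene table gave it no gene model of its own. The missing names therefore do not show that those genes were not expressed. Of 5 names linked to tb1, 2 had a gene model with counts and neither had enough for a test. tga1, the SBP-box gene of the teosinte fruitcase and a target of TB1, had 12 and 9 counts in the FI libraries against 2 and 3 in those of TI. bad1, a TCP gene of the same subfamily as tb1 that shapes the angle of tassel branches, had 0 and 2 counts in the FI libraries against 0 and 1 in those of TI. Both were near the limit of 3 counts in TI, and only tga1 was above it in FI.

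Strigolactones, hormones made in part by the carotenoid cleavage dioxygenase ccd7, also restrain buds. Of 7 names 2 had a gene model with counts. ccd7 had 2 and 0 counts in the FI libraries against 4 and 2 in those of TI, which is at the limit of detection. d53, whose rice counterpart represses the strigolactone response, had 342 and 332 counts in the FI libraries against 262 and 187 in those of TI, with a log2FC of 0.09 (SE 0.21, FDR 0.848 by edgeR). Of 14 names for abscisic acid synthesis and dormancy only vp14 had a gene model with counts. Its enzyme cleaves carotenoids on the way to abscisic acid. The counts of vp14 were 51 and 57 in FI against 47 and 31 in TI, with a log2FC of -0.02 (SE 0.33, FDR 0.977 by edgeR).

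Phytochromes are the light receptors through which shade acts on buds, and in maize gt1 responds to shade. Of 6 names 3 had a gene model with counts, and all 3 were tested. phyb1 had 320 and 408 counts in the FI libraries against 414 and 303 in those of TI (log2FC -0.47, SE 0.25, FDR 0.390 by edgeR). phyb2 had 156 and 207 counts in the FI libraries against 300 and 188 in those of TI (log2FC -0.91, SE 0.30, FDR 0.283 by edgeR). In CPM both phytochrome B genes were above FI in both TI libraries, as were 26.5% of the gene models tested. This order was opposite to that of tb1 and gt1. phya2 had 61 and 52 counts in the FI libraries against 103 and 34 in those of TI, and its log2FC of -0.75 (SE 0.50, FDR 0.464 by edgeR) became 0.09 without TI replicate 1. Of the 3, phyb2 had an unadjusted p under 0.05 for higher expression in TI (0.0276), a direction in which 9.67% of all gene models did, and no FDR was under 0.05.

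The families to which tb1 and gt1 belong were read in the same way. Of 7 other TCP genes named by number 6 had counts and 3 were tested. TCP4 had 54 and 58 counts in the FI libraries against 32 and 14 in those of TI (log2FC 0.80, SE 0.43, FDR 0.392 by edgeR), TCP12 had 39 and 24 in FI against 8 and 14 in TI (log2FC 0.96, SE 0.54, FDR 0.403 by edgeR), and TCP8 had 19 and 5 in FI against 12 and 3 in TI (log2FC 0.17, SE 0.88, FDR 0.938 by edgeR). In CPM, both FI libraries were above both TI libraries for TCP4 and TCP12, 2 of the 3 tested, a pattern of 30.0% of all gene models tested, and both genes were present in TI replicate 1. None of the 3 had an unadjusted p under 0.05.

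Of 21 homeobox genes named by number, a wider family than the HD-ZIP class of gt1, 19 had counts and 11 were tested. The median log2FC of these 11 was -0.78, beside -0.0015 over all gene models, while gt1 had 2.39. Among the 19, both FI libraries were above both TI libraries in 5 (HB112, HB133, HB55, HB2 and HB21) and below both in 7. Among the 11 tested these numbers were 3 and 6, against 30.0% and 26.5% of all gene models tested. HB112, the most abundant, had 302 and 234 counts in the FI libraries against 84 and 124 in those of TI (log2FC 0.82, SE 0.33, FDR 0.321 by edgeR). HB128 had 205 and 138 counts in the FI libraries against 244 and 111 in those of TI (log2FC -0.54, SE 0.37, FDR 0.473 by edgeR), and HB131 had 120 and 94 in FI against 76 and 93 in TI (log2FC -0.20, SE 0.30, FDR 0.756 by edgeR). HB84 had 61 and 53 counts in the FI libraries against 169 and 67 in those of TI (log2FC -1.52, SE 0.43, FDR 0.261 by edgeR).

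An unadjusted p under 0.05 was found for HB110, HB84, HB61 and HB115, 4 of these 11 homeobox genes, all with higher expression in TI (9.67% of all gene models tested), and for none with higher expression in FI (6.11%). Chosen after its values were seen, HB110 had the largest difference of the 11, with 18 and 13 counts in the FI libraries against 152 and 68 in those of TI (log2FC -3.30, SE 0.45, FDR 0.201 by edgeR's quasi-likelihood test). It was the only one of the 11 with an FDR under 0.05 in edgeR's exact test (5.45e-06), in which 3.34% of all gene models had such an FDR with higher expression in TI and 1.51% with higher expression in FI, and its log2FC was -2.76 without TI replicate 1. Also chosen after its values were seen, HB2 had 12 and 15 counts in the FI libraries against 0 and 6 in those of TI, with FI above TI replicate 2 and a 0 in TI replicate 1 as for gt1, at a lower level.

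Likeness was measured as the Euclidean distance between the log2 levels of the 4 libraries, among genes with a mean level between 0.5 and 2 times that of the gene. On counts, the 3 of 597 named gene models nearest to gt1 were ZAG5, m1 and yabby15. ZAG5, a MADS-box gene, had 94 and 78 counts in the FI libraries against 0 and 26 in those of TI (distance 0.235). m1, also named ov23, had 91 and 99 counts in the FI libraries against 0 and 29 in those of TI (distance 0.383), and yabby15, of the YABBY family, had 81 and 87 in FI against 0 and 28 in TI (distance 0.422). Chosen by these counts, all 3 had 0 in TI replicate 1 and between 46.8% and 51.1% of their FI mean CPM in TI replicate 2, a little above the 38.9% of gt1.

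On FPKM the nearest genes are known here by identifier only. Zm00001d052133 was nearest to tb1 (distance 0.166), with 5.80 and 7.12 FPKM in FI and 0 and 2.45 FPKM in TI. Zm00001d018056 was nearest to gt1 (distance 0.239), with 25.8 and 30.0 FPKM in FI and 0 and 13.3 FPKM in TI. Zm00001d006168 was nearest to tru1 (distance 0.131), with 3.95 and 2.45 FPKM in FI and 1.73 and 2.04 FPKM in TI. The values in these 4 libraries chose the neighbours and so describe the choice only.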

How the data were processed

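RNA of FI and TI was sequenced in 2 libraries each. Per the labels and the methods, the authors checked the reads with FastQC 0.11.2, cleaned them with Trimmomatic and aligned them with TopHat2 2.0.13. The authors deposited raw counts per version 3 transcript (the submitters' processing notes name B73 RefGen_v3, the methods RefGen_v4, and the counting tool is not given in the sources used here) and FPKM values per RefGen_v4 gene from CLC Genomics Workbench. Deposited columns of the authors' own fold changes, p-values and FDR were not used. The count columns of the tissue other than the top internode are named floral stem and were taken to be FI, the only floral tissue of the series.

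The test of the FPKM used limma 3.58.1 (trend, two-sided) in R 4.3.3 on log2(FPKM + 1), for genes averaging at least 1 FPKM. The size of the log2FC depends on this pseudocount, most of all for tb1 and gt1, which were at 0 in TI replicate 1. With a pseudocount of 0.1 it rose from 2.05 to 3.75 for tb1, from 3.06 to 4.73 for gt1 and from 0.48 to 0.64 for tru1. Counts were summed to 26167 gene models, filtered with filterByExpr (minimum count 10, minimum total 15), normalized by TMM and tested with edgeR 4.0.16 (glmQLFit, glmQLFTest). FDR is the Benjamini-Hochberg value over all genes tested, and a gene was called at an absolute log2FC over 2 with an FDR under 0.05. No block was used. Whole fragments were recovered from the FPKM steps as the smallest whole numbers, which could be too low by a divisor shared by the 4 libraries; the intervals would then be too wide. Alternatives were the pseudocount 0.1, other filters and scalings, recovered fragments, exact tests, DESeq2 1.42.0, counts per transcript, the replicate block, a log2FC threshold of 1 and each library left out. Fits were tested on simulated data in which all 4 libraries had the same spread. That simulation did not cover a difference between the TI libraries like the one seen here. Other steps were run in Python 3.11.15.

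The members and lists were chosen with earlier results of these data known. The text names the 3 members, the members of fixed lists (at most 4 examples each, the most abundant first, unless said otherwise) and the genes most like each member. The lists were written for the FPKM values, but the gene table used (RefSeq names, assembly NAM-5.0) pairs names with version 3 gene models only, so they were read on counts. For tb1 and tru1 counts were not analysed here. Coordinates were not used, since the builds differ.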

Additional observations from a re-analysis of the deposited data

How the results depend on the processing

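No alternative turned the sign of a log2FC of tb1, gt1 or tru1. With all 4 libraries, the log2FC on FPKM was 2.03 to 3.75 for tb1 (FDR 0.103 to 0.328), 2.32 to 4.73 for gt1 (FDR 0.184 to 0.371) and 0.47 to 0.66 for tru1 (FDR 0.403 to 0.671) over 8 alternatives each, and 2.37 to 2.89 for gt1 on counts (FDR 0.139 to 0.835) over 6; the highest FPKM values of tb1 and gt1 came with a pseudocount of 0.1. Leaving out each library in turn gave 1.13 to 2.97 for tb1, 1.25 to 4.86 for gt1, 0.23 to 0.74 for tru1 and 1.35 to 9.47 for gt1 on counts. The highest value of tb1 and of gt1 came without TI replicate 2. The 2.97 and 4.86 depend on the pseudocount and the 9.47 on the prior count, because TI replicate 1 was at 0. In such fits the lone library of a tissue is assumed to vary like the others.

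The number of called genes, 0 in both comparisons, was 609 with the exact test on recovered fragments (201 higher in FI, 408 in TI). On counts it was 590 with the exact test, 361 without a filter and 250 with DESeq2. With a library left out it was 0 to 2056 on FPKM and 0 to 2343 on counts: removing TI replicate 1 left 48 and 182, removing TI replicate 2 left 2056 and 2343, and removing either FI library left 0. The cause was not tested.

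With the replicate number as a block, 0 genes were called on FPKM and on counts. The block gave tb1 2.05 (FDR 0.214), gt1 3.06 (FDR 0.214), tru1 0.48 (FDR 0.464) and gt1 on counts 2.89 (FDR 0.357). The difference between the FI libraries was correlated across genes with that between the TI libraries, on log2 levels. The correlation was 0.174 on FPKM (19531 genes) and 0.158 on counts (15053 gene models). Genes are not independent replicates. The labels name no shared batch or plant, so whether same-numbered libraries share one cannot be told from them. The alternatives for tb1 and tru1 on counts were not run, as no name in the gene table pairs them with a version 3 gene model. In TI replicate 2, tb1 rested on 8, tru1 on 16 and gt1 on 43 fragments.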
